A study of Moricandia arvensis and Moricandia suffruticosa and Moricandia moricandioides with 78 samples.

Results

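Leaf transcripts of Moricandia arvensis (Mav) that had been droughted and then rewatered were compared with those of Mav plants that were never droughted. The members were chosen by the labels alone (organism, treatment and sampling point), and are 9 of the 78 libraries: 4 from rewatered plants (A30s, A38s, A40s and A42s) and 5 from controls (A6c, A8c, A10c, A13c and A17c). Mav is a wild crucifer with C2 photosynthesis, a state between C3 and C4 in which glycine from photorespiration is decarboxylated mainly in the bundle sheath. All 9 libraries are mature leaf of 1 accession, IPK Gatersleben:MOR1. The rewatered plants had water withheld until stomatal conductance (Gs) fell to 10% of its starting value (the T2 sampling) and then received water up to the starting pot weight. They were sampled 1 day later (RW), with a labelled Gs of 100%. The controls had lost water replaced every day and carry the same label of 100% Gs. Both groups were grown in pots closed with plastic bags, and per the study's methods 4 fully expanded leaves from 5 plants per treatment were collected.

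A drying leaf makes abscisic acid (ABA), which closes stomata and switches on genes for protective proteins such as dehydrins and other late embryogenesis abundant (LEA) proteins. It also lowers photosynthesis genes, growth genes and the response to cytokinin, a hormone of growth and greening. Rewatering removes the signal, ABA is broken down by 8'-hydroxylases, and proline stored under drought is oxidised. The question put to these libraries is which of those changes were still present after rewatering.

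The 4 rewatered libraries are not 4 equal replicates. Between A30s, A38s and A42s the median squared difference per gene was 1.91 to 3.54 times what counting noise alone gives, whereas the other 33 pairs of the 9 libraries lay between 20.8 and 72.9 times. A42s was sequenced on lane 7 and A30s and A38s on lane 2, and nothing in the sources used here says how 3 plants came to be so alike. Each edgeR test was therefore run in 2 forms, with each library as a replicate (4 against 5) and with A30s, A38s and A42s summed (2 against 5). Adjusted p-values below are from the first form unless marked as summed, and in the summed form AT5G45610 alone was called at RW. A40s lay 25.3 to 29.6 times counting noise from the other 3. The control A6c stood apart, at 50.8 to 72.9 times counting noise from each of the other 8 libraries, against 20.8 to 36.8 between the other controls.

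Depth was similar in both groups, at 22346621 to 35912132 counts per rewatered library and 25641791 to 35390807 per control, over features named by Arabidopsis locus. Levels below are counts in every 1000000 (CPM), scaled by TMM within a sampling point, and are compared between libraries, not between genes. The labelled tissue was checked with its own markers: 5 mesophyll genes summed to 25130 to 28820 CPM in the rewatered leaves and 28670 to 40230 CPM in the controls. Flower genes summed to at most 39.99 CPM, seed genes to at most 0.750 CPM with 1 of 4 at 0 throughout, and meristem genes to at most 0.0445 CPM with 1 of 4 at 0 throughout. Phloem genes gave 248 to 351 CPM after rewatering and 188 to 385 CPM in controls. In bulk leaf RNA, fewer cells of a type and less RNA per cell cannot be told apart, and the part of the lower mesophyll sum in any result was not tested.

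Few genes were called by edgeR between rewatered and control leaves. With each library as a replicate, 52 of 19623 genes tested (0.265%) were called by edgeR at an adjusted p under 0.05 and a change of more than 1 on the log2 scale, 34 of them higher (0.173%) and 18 lower (0.0917%). With the 3 near-identical libraries summed, 1 of 20486 genes (0.00488%) was called. In that fit no gene was called lower, though 334 were lower at an unadjusted p under 0.05. On the unsummed libraries, 3602 genes (18.4%) had an unadjusted p under 0.05 by edgeR, and DESeq2 called 369 higher and 445 lower. All 52 called genes kept their sign when the libraries were summed, and all 52 then had an unadjusted p under 0.05. These genes were picked for a small p in the same counts, so neither result is separate evidence for them. Both groups were free of overlap at every called gene, a property shared by 6.77% of all genes tested (3.88% above and 2.89% below the controls). A40s lay nearer the controls than the mean of the near-identical libraries at 28 of the 34 higher genes and at 16 of the 18 lower ones. Because 3 of the 4 rewatered libraries are so alike, the first count treats them as more independent than their likeness allows, and the summed count rests on 2 units.

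The count also turned on single libraries. Without A40s, 439 genes were higher and 500 lower, and without the control A6c 339 were higher and 203 lower, in both cases with all 34 and all 18 original calls among them. Without any 1 of A30s, A38s and A42s, 3 were higher and 1 lower. Most genes lay near their control level: the median log2 change over all genes was -0.05, the quartiles were -0.38 and 0.27, and 88.2% lay within 1.

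The same species under drought gives the scale. At T2, 5 libraries of the same accession at 10% Gs against 5 controls at 100% Gs gave 5525 called genes of 19613 (28.2%), 2273 higher (11.6%) and 3252 lower (16.6%), and 5385 with near-identical libraries summed. The difference between the change at RW and the change at T2 was itself called at 5601 of 20901 genes (26.8%), 14.1% with a higher change at RW and 12.7% with a lower one, and at 3151 (14.5%, or 8% and 6.51%) with near-identical libraries summed. T2 and RW used different plants. The hour of sampling at RW is not given in the sources used here, and TOC1 (AT5G61380), an evening gene of the circadian clock, stood at 83.7 to 319 CPM in the RW controls and 0.552 to 3.16 CPM in the T2 controls. Each change was taken against the controls of its own sampling point, and the part of the hour in the differences was not tested.

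Genes raised by drought and genes lowered by it had medians near control level at RW. The 2059 raised genes that were tested at RW had a median log2 change of 1.63 at T2 and -0.21 at RW (-0.12 summed). Of these, 82.2% lay within 1 at RW. By edgeR at an unadjusted p under 0.05, 163 of the 2059 were higher at RW and 297 lower. Over all genes the shares were 8.45% and 9.91%. The 3215 genes lowered by drought and tested at RW had a median of -1.91 at T2 and -0.03 at RW (-0.06 summed). Of these, 83.0% lay within 1. Both shares within 1 were below the 88.2% of all genes tested at RW, so a full return was not shown for either set. Calls at RW, in either direction, were made at 0.534% of the first set and 0.404% of the second, against 0.265% of all genes tested. Of the 52 genes called at RW, 47 were tested at T2, 16 were called there in the same direction and 8 in the opposite direction.

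The gene with the smallest adjusted p was AT5G45610, the only one called in both fits. It stood at 64.2, 74.8 and 71.9 CPM in A30s, A38s and A42s, at 116 CPM in A40s, and at 4.199, 4.14, 5.61, 3.83 and 7.67 CPM in the controls A6c, A8c, A10c, A13c and A17c. Every rewatered library was thus far above every control. The log2 change was 4.00 (SE 0.27, edgeR adjusted p = 0.000813), and 4.21 with the near-identical libraries summed (95% interval 3.47 to 4.94, adjusted p = 0.0168). Under drought this locus was not called, with a log2 change of -0.19 at T2, and the difference between RW and T2 was 4.16 (adjusted p = 1.51e-06, and 0.000124 summed). It was called in all 17 alternative settings, with adjusted p-values from 9.66e-41 to 0.0318. The files do not pair this locus with a gene name.

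AT1G61800, also without a name in the files, stood at 44.2, 46.03 and 46.2 CPM in A30s, A38s and A42s, 30.5 CPM in A40s, and 4.54, 5.92, 3.23, 2.84 and 3.20 CPM in the controls in the same order. Again the groups were far apart. Its log2 change was 3.41 (SE 0.26, edgeR adjusted p = 0.000996) and 3.30 summed (adjusted p = 0.0600). At T2 it had gone the other way, with a log2 change of -1.14 (edgeR adjusted p = 0.0275). The difference of 4.52 between the sampling points was called in both fits (edgeR adjusted p = 5.16e-06 and 0.000250). The T2 controls were at 21.1 to 48.2 CPM and the droughted leaves at 6.78 to 25.6 CPM, scaled apart from the RW libraries. The rewatered leaves thus lay within the range of the T2 controls, and the RW controls lay below it. The part of this gap between control groups in the rise and in the difference was not tested.

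**Figure D1:**
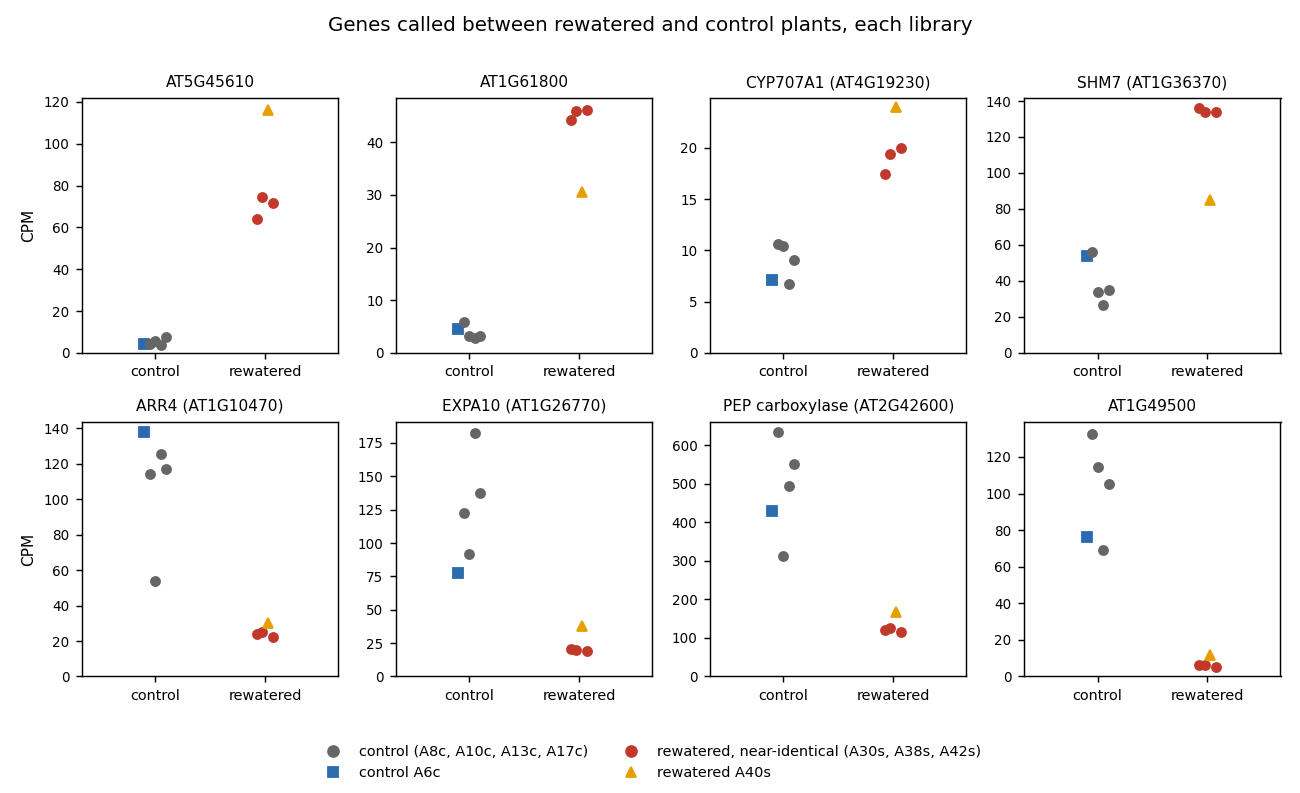
Level (CPM, linear axis from 0) of 8 genes called between rewatered and control Mav, 1 point per library. Circles in red are the near-identical A30s, A38s and A42s, the orange triangle A40s, the blue square control A6c and grey circles the other 4 controls. In all 8 panels the rewatered points lie to 1 side of all 5 controls, as for ARR4, at 22.5 to 30.2 CPM against 53.7 to 138 CPM.

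Genes of ABA breakdown and synthesis came next. CYP707A1 (AT4G19230), an ABA 8'-hydroxylase that starts the breakdown of the hormone, had 17.5, 19.4 and 20.0 CPM in the near-identical libraries and 24.0 CPM in A40s, against 7.12, 10.6, 10.46, 6.75 and 9.09 CPM in the controls. All 4 rewatered libraries were above all 5 controls. The log2 change was 1.202 (SE 0.19, edgeR adjusted p = 0.0407), and 1.31 summed (95% interval 0.73 to 1.89, adjusted p = 0.850). At T2 its log2 change was 0.84 (95% interval -0.57 to 2.25) and was not called. The difference of 0.32 between RW and T2 was not called either (95% interval -1.23 to 1.88). A rise particular to rewatering was thus not established. At RW, CYP707A1 was the only called member of the 9 tested genes of ABA synthesis and breakdown. Their median log2 change was -0.25.

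Of the 11 tested genes of ABA synthesis and breakdown, 4 were called higher and 2 lower at T2, against 11.6% and 16.6% of all genes. At RW 1 of 9 was higher and 2 were lower at an unadjusted p under 0.05, against 8.45% and 9.91%. NCED3 (AT3G14440), the rate-limiting dioxygenase of ABA synthesis, had a median of 285 CPM under drought against 17.9 CPM in the T2 controls, a log2 change of 3.69 (edgeR adjusted p = 5.86e-05). At RW it stood at 28.3 to 71.04 CPM in rewatered leaves and 26.99 to 75.9 CPM in controls, so that the groups overlapped throughout. AAO3 (AT2G27150), the oxidase of the last step, was at 10.7 to 15.4 CPM against 8.40 to 21.98 CPM. The differences between RW and T2 were -4.10 for NCED3 and -2.38 for AAO3, called with libraries separate (adjusted p = 7.00e-05 and 0.000202) and summed (0.00503 and 0.00884). The synthesis gene ABA2 (AT1G52340) was at 14.2 to 23 CPM at RW against 22.2 to 42.2 CPM, a log2 value of -0.81 (edgeR adjusted p = 0.119). Of 11 members tested for the difference from T2, 4 were called lower and none higher. By edgeR, 3 members were called lower with libraries summed. Over all genes, the shares called lower were 12.7% and 6.51%.

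ABA signalling followed the same course. This list holds clade A protein phosphatases 2C, which hold the pathway off and are themselves induced by ABA, SnRK2 kinases and the ABF transcription factors. At T2, 10 of 15 tested members rose and none fell, against 11.6% and 16.6% of all genes. At RW none of 14 was called either way by edgeR, where 0.265% of all genes were. At an unadjusted p under 0.05, 0 were higher and 3 lower, and 1, ABF1, was lower by DESeq2. Relative to T2, 11 of 15 had a called fall, 10 with libraries summed, against 12.7% and 6.51% of all genes. The phosphatase gene AHG3 (AT3G11410) had a median of 959 CPM under drought and 98.2 CPM in the T2 controls. At RW it was at 132 to 196 CPM in rewatered leaves and 143 to 224 CPM in controls, and the difference between sampling points was -3.43 (edgeR adjusted p = 7.83e-07, and 0.000242 summed). ABI2 (AT5G57050), another phosphatase of the clade, differed by -3.53 (adjusted p = 1.92e-05, and 0.00150 summed) and the transcription factor gene ABF3 (AT4G34000) by -3.44 (adjusted p = 5.25e-06, and 0.000651 summed).

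Within the rewatered group the near-identical libraries and A40s gave different levels of these signalling genes. ABI2 was at 6.96, 6.45 and 7.13 CPM in A30s, A38s and A42s, below all 5 controls (11.2 to 24.8 CPM), and at 16.4 CPM in A40s, within them. ABF3 was at 11.8 to 12.1 CPM in the near-identical libraries, 28.3 CPM in A40s and 20.0 to 36.7 CPM in the controls. In 7 of the 14 tested members the near-identical libraries were below every control, against 11.5% of all genes, and in none was A40s below every control. Without A40s, 4 members (ABI1, ABI2, ABF1 and ABF3) were called lower, as 2.52% of all genes were.

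Dehydrin and LEA genes had been high under drought. At T2, 14 of 17 tested members were called higher and none lower, against 11.6% and 16.6% of all genes. RAB18 (AT5G66400), a dehydrin, had a median of 6560 CPM under drought against 84.1 CPM in the T2 controls, a log2 change of 5.37 (edgeR adjusted p = 2.88e-05). One day after rewatering it was at 134, 125, 115 and 54.9 CPM in A30s, A38s, A42s and A40s, and at 124, 73.03, 55.5, 85.9 and 28.9 CPM in the controls. The groups overlapped, and the change relative to T2 was -4.85 (adjusted p = 6.37e-05, and 0.00211 summed). Of the 17 members, 8 had a called fall between T2 and RW, 5 with libraries summed, against 12.7% and 6.51% of all genes.

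Some members of the list were still above control in part of the rewatered libraries. RD29B (AT5G52300), a desiccation-responsive protein whose gene is a standard ABA reporter, was at 275, 302 and 300 CPM in A30s, A38s and A42s and at 106 CPM in A40s, against 154, 86.02, 58.04, 83.8 and 25.7 CPM in the controls. The dehydrin ERD10 (AT1G20450) was at 1308, 1338 and 1441 CPM in the near-identical libraries, 655 CPM in A40s, and 242 to 738 CPM in the controls. Only the near-identical libraries exceeded every control for both genes, and A40s fell inside the control range. Neither was called by edgeR (adjusted p = 0.138 and 0.126, log2 1.59 and 1.26), and the 95% intervals of the summed fit, -0.09 to 2.71 and -0.01 to 2.13, include both no change and a rise of more than 1.

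None of the 14 dehydrin and LEA genes tested at RW was called by edgeR, 4 being higher and 0 lower at an unadjusted p under 0.05, and 3 (COR47, ERD10 and RD29B) were called by DESeq2. Their median log2 change was 0.79, beside -0.05 over all genes. Without the control A6c, in which 5 of the 14 stood at over 2 times any other control, the median was 1.296 and 4 were called higher (COR15A, COR15B, RD29B and KIN2). Without A40s, 3 were called higher (COR47, ERD10 and RD29B) and SAG21 lower. Over all genes, 1.74% were called higher without A6c, and 2.21% higher and 2.52% lower without A40s. Close copies such as COR15A and COR15B, KIN2 and KIN1, the LHCB1 genes and the paired response regulators can trade reads under best-scoring mapping, so their single values are uncertain.

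Heat shock genes, chaperones that protect proteins in stressed cells, fell back in the same way. At T2, 13 of 14 tested members rose, against 11.6% of all genes. At RW none of the 9 tested was called by edgeR (2 higher and 0 lower at an unadjusted p under 0.05, and 1, HSP23.5, by DESeq2). Relative to T2, 11 of 14 had a called fall, 10 with libraries summed, against 12.7% and 6.51% of all genes. The small heat shock gene HSP17.6B (AT2G29500) had a median of 480 CPM at T2 under drought. At RW it was at 38.4 to 39.98 CPM in rewatered leaves and 22.8 to 37.7 CPM in controls, with a difference between sampling points of -2.37 (adjusted p = 2.83e-05, and 0.00193 summed). The mitochondrial HSP23.5 (AT5G51440) was above all controls at RW but near the limit of detection, at 0.441 to 1.19 CPM against 0.113 to 0.331 CPM.

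Senescence genes had risen in 11 of 23 members at T2 and fallen in 3, against 11.6% and 16.6% of all genes. At RW edgeR called none, with 2 higher and 8 lower at an unadjusted p under 0.05 (8.45% and 9.91% of all genes). DESeq2 called SAG12 higher and SEN1 lower. The near-identical libraries were below every control in 8 members and above in 2, against 11.5% and 12.1% of all genes. A40s was below every control in 2 and above in 4, against 9.62% and 12%. The cysteine protease gene SAG12 (AT5G45890), a marker of developmental leaf senescence, had a median of 420 CPM under drought and 0.572 CPM in the T2 controls. After rewatering it was at 0.764 to 2.08 CPM, still above the 0.220 to 0.496 CPM of the RW controls, and the difference between sampling points was -6.71 (edgeR adjusted p = 8.98e-05, and 0.00473 summed). Ferritin FER1 (AT5G01600), an iron store, had a median of 1322 CPM under drought and was at 139, 143 and 149 CPM in A30s, A38s and A42s at RW. A40s was at 37.7 CPM, inside the control range of 5.22 to 66.6 CPM. The catalase gene CAT2 (AT4G35090), which removes peroxide from photorespiration, had risen at T2 and at RW stood at 547 to 714 CPM, against 714 to 2176 CPM in controls. Its groups touched at A40s and A13c.

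**Figure D2:**
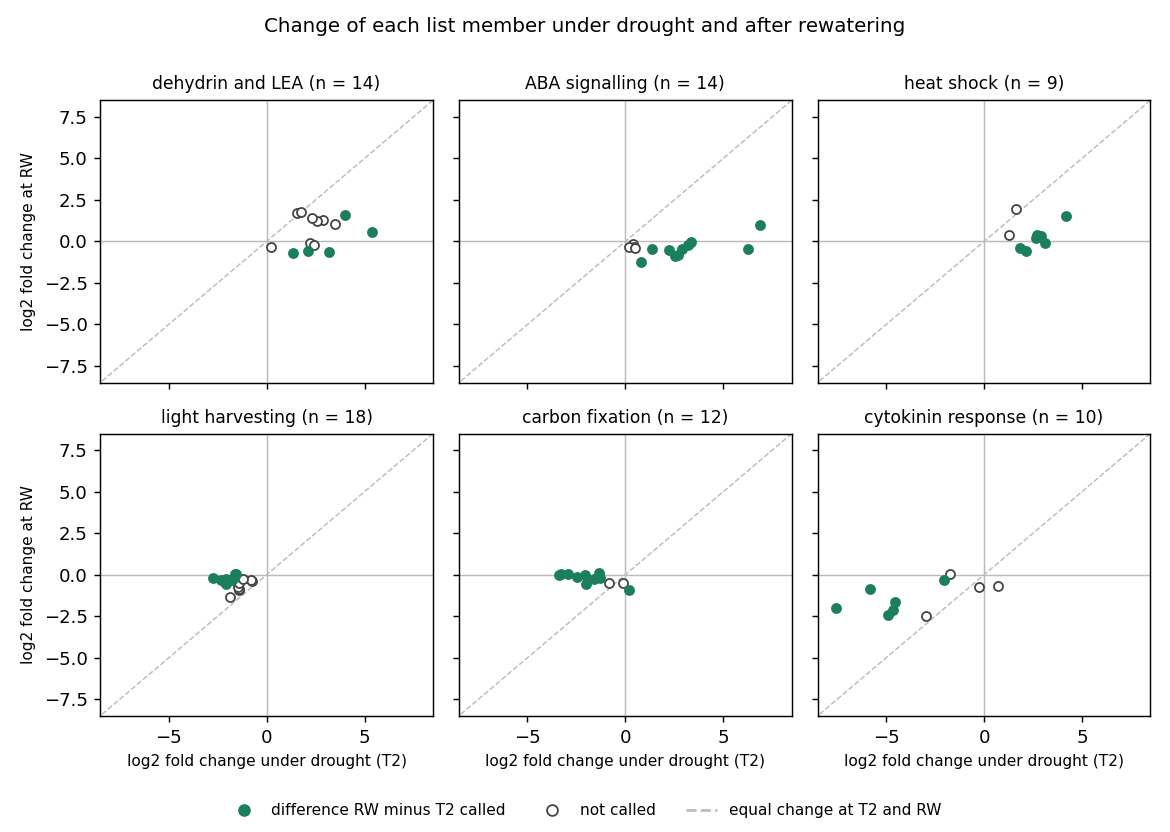
Log2 fold change at RW (vertical) against that under drought at T2 (horizontal) for each gene of 6 lists that was tested at both, with filled points where the difference between the changes was called. Points on the dashed line would have kept their whole drought change, and most lie near the horizontal zero line instead. The axes share no libraries.

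Photosynthesis genes were lowered by drought and largely back at RW. Of 18 light-harvesting genes, which encode the chlorophyll-binding antenna proteins, 16 fell at T2 (16.6% of all genes did). At RW none was called by edgeR, and 1, LHCB2.2, was lower by DESeq2. At an unadjusted p under 0.05, 0 were higher and 7 lower, against 8.45% and 9.91% of all genes. Relative to T2, 10 had a called rise, 8 with libraries summed, against 14.1% and 8% of all genes. Their median log2 change at RW was -0.36, beside -0.05 over all genes. In 5 of the 18 all rewatered libraries were below all controls (2.89% of all genes were). LHCB1.4 (AT2G34430) was at 5089, 4552, 4570 and 5700 CPM in A30s, A38s, A42s and A40s and at 7582 to 11260 CPM in the controls, with a log2 change of -0.87 (edgeR adjusted p = 0.0985) and a summed 95% interval of -1.51 to -0.07. A40s was below every control in 15 of the 18, against 9.62% of all genes, and the near-identical libraries in 5.

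Carbon fixation and photorespiration had the same order. Of 12 carbon fixation genes 9 fell at T2 (16.6% of all genes did). At RW none was called by edgeR (0 higher and 2 lower at an unadjusted p under 0.05, 0 by DESeq2). Between T2 and RW 9 had a called rise and 1 a called fall, against 14.1% and 12.7% of all genes. A40s was below every control in 9 of the 12 and the near-identical libraries in 3, against 9.62% and 11.5%. In 2 of them all rewatered libraries were below all controls (2.89% of all genes were). CP12-2 (AT3G62410), a small redox regulator of the Calvin-Benson cycle, was not called at T2. It was at 997, 911, 922 and 1180 CPM in rewatered leaves and at 1467 to 2567 CPM in controls, without overlap, and its change at RW was lower than at T2 by edgeR (difference -1.13, adjusted p = 0.0146, and 0.0799 summed). Of 10 photorespiration genes taken from the study's list, 5 fell at T2 (16.6% of all genes did). Between T2 and RW 5 had a called rise in both fits, against 14.1% of all genes and 8% summed. The gene of glycine cleavage system H protein (AT1G32470), a carrier in the reaction that releases CO2 in C2 plants, had a median of 240 CPM under drought against 1722 CPM in T2 controls. At RW it was at 1176 to 1283 CPM in rewatered leaves and 1279 to 1871 CPM in controls, with a difference of 2.17 between sampling points (adjusted p = 3.19e-05, and 0.00151 summed).

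The mitochondrial serine hydroxymethyltransferase (AT4G37930), which joins 2 glycines into a serine in photorespiration, was at 3505 to 4502 CPM after rewatering and 4246 to 7146 CPM in controls. It was not called by edgeR or DESeq2, with a log2 value of -0.43. Another family member was. SHM7 (AT1G36370), named from the study's tables after its value was seen, was at 136, 134, 134 and 85.0 CPM in A30s, A38s, A42s and A40s and at 53.9, 55.8, 33.8, 26.8 and 35.01 CPM in the controls. The rewatered libraries were all higher. The log2 change was 1.57 (SE 0.25, edgeR adjusted p = 0.0437) and 1.44 summed (adjusted p = 0.975). It was not called at T2, with a log2 value of 0.07, and the difference of 1.48 was called with libraries separate (adjusted p = 0.0180) and not when summed (0.134).

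In the cytokinin response, edgeR called 2 of 10 tested genes lower after rewatering, and none with libraries summed. Type-A response regulators (ARR) are switched on quickly by cytokinin and feed back to damp its signal. ARR4 (AT1G10470) was at 24.1, 24.9 and 22.5 CPM in A30s, A38s and A42s and 30.2 CPM in A40s, against 138, 114, 53.7, 126 and 117 CPM in A6c, A8c, A10c, A13c and A17c. Every rewatered library was below every control, A10c being the lowest of the controls. The log2 change was -2.11 (SE 0.27, edgeR adjusted p = 0.0220), and -2.01 summed (95% interval -2.95 to -1.08, adjusted p = 0.850). ARR3 (AT1G59940) was at 1.13, 1.57, 0.899 and 2.23 CPM against 5.10 to 12.8 CPM, a log2 change of -2.40 (SE 0.38, adjusted p = 0.0407, and 0.975 summed).

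Other type-A genes had log2 values below 0 without being called by edgeR. ARR15 (AT1G74890) was at 0.976 to 1.31 CPM against 2.03 to 7.22 CPM, a log2 value of -1.99 (edgeR adjusted p = 0.0610, and 0.991 summed). ARR5 (AT3G48100), ARR6 (AT5G62920) and ARR7 (AT1G19050), chosen after their values were seen, had log2 values of -1.62, -2.49 and -0.88 (edgeR adjusted p = 0.101, 0.0798 and 0.103, and 0.991 summed for each). DESeq2 called ARR15, ARR5 and ARR6 lower. For ARR5, ARR6 and ARR7 the rewatered libraries were below all controls. ARR6 was at 4.37, 7.64, 5.96 and 7.91 CPM in the order A30s, A38s, A42s and A40s and at 13 to 74.3 CPM in the controls, and ARR7 at 6.29 to 10.9 CPM against 12.9 to 22.6 CPM. ARR5 was at 1.44 to 2.302 CPM against 3.41 to 11.3 CPM.

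Of the 10 tested genes of the cytokinin list, DESeq2 called 5 lower (ARR3, ARR4, ARR5, ARR6 and ARR15) and none higher, and 6 were below all controls in all rewatered libraries, against 2.89% of all genes. The same count of 6 was lower at an unadjusted p under 0.05 in each fit, against 9.91% of all genes and 1.63% with libraries summed. The median log2 change of these 10 was -1.25 in both fits, beside -0.05 and -0.02 over all genes, and over the 11 members tested in the summed fit it was -1.01. Without A6c, edgeR called the same 5 lower, and without A40s 4 (ARR3, ARR4, ARR6 and ARR15), against 1.04% and 2.52% of all genes. The near-identical libraries and A40s thus lay on the same side here: each was below every control in 6 members.

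Most of these genes had also been low at T2. There, 7 of the 10 were called lower and none higher, against 16.6% and 11.6% of all genes. ARR4 had a median of 8.97 CPM under drought against 276 CPM in the T2 controls (log2 -4.66, edgeR adjusted p = 3.28e-05). The difference between the changes at RW and T2 was 2.51 for ARR4 (adjusted p = 0.00174, and 0.0175 summed), 4.91 for ARR7 (adjusted p = 4.75e-06, and 0.000403 summed) and 5.56 for ARR15 (adjusted p = 0.000175, and 0.00268 summed). Of the 10, 6 had a called rise relative to T2, and 5 did with libraries summed, against 14.1% and 8% of all genes. ARR6 had no called rise, with a difference of 0.45 (95% interval -1.04 to 1.95).

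**Figure D3:**
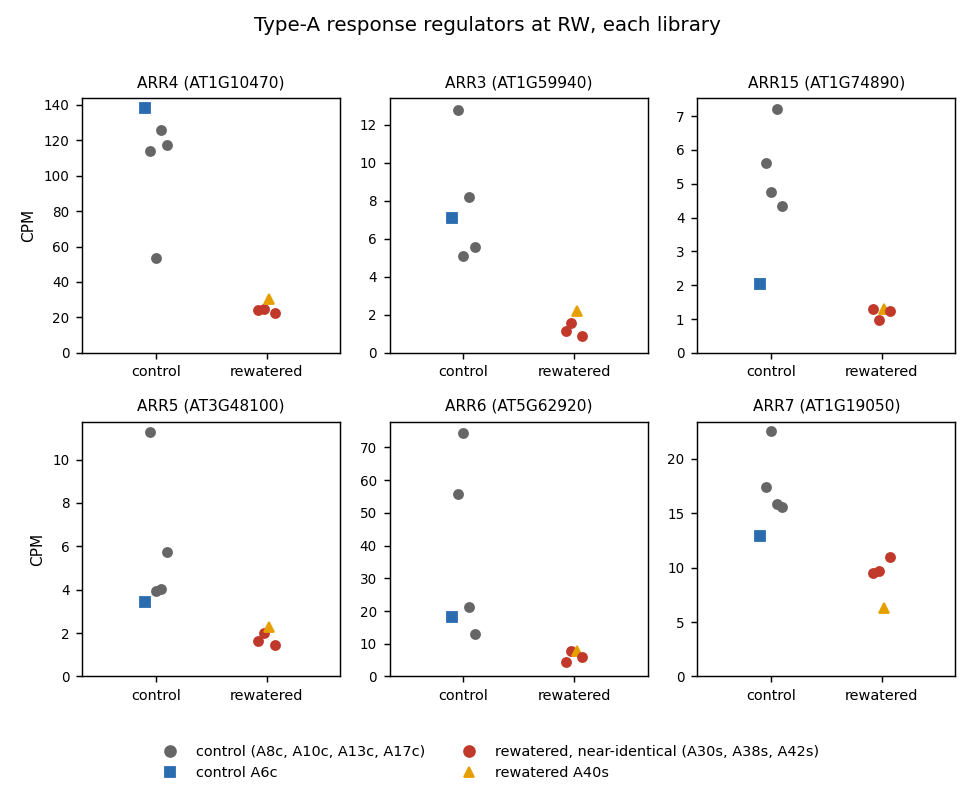
Level (CPM, linear axis from 0) of 6 type-A response regulator genes in each RW library of Mav, with the same symbols as in the plot of called genes. In every panel all 4 rewatered points lie under all 5 controls, for example 6.29 to 10.9 CPM against 12.9 to 22.6 CPM for ARR7.

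Of the genes of wall loosening, 1 expansin was called. Expansins loosen the wall during cell growth, and xyloglucan endotransglucosylases (XTH) cut and rejoin its hemicellulose. EXPA10 (AT1G26770) was at 20.4, 20.0 and 19.4 CPM in A30s, A38s and A42s, 37.9 CPM in A40s and 77.7, 123, 91.7, 183 and 138 CPM in the controls. All rewatered libraries were well below the lowest control. The log2 change was -2.33 (SE 0.32, edgeR adjusted p = 0.0291), and -2.08 summed (95% interval -3.09 to -1.06, adjusted p = 0.850). It had been called lower at T2 as well (log2 -2.85), and the difference of 0.49 between the changes was not called, with a 95% interval of -1.34 to 2.31. EXPA1 (AT1G69530) was at 97.4 to 163 CPM against 183 to 837 CPM (log2 -1.99, edgeR adjusted p = 0.0713, and 0.991 summed).

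Over the list, edgeR called 1 of 34 tested members at RW, lower, and none with libraries summed, DESeq2 called 9 higher and 6 lower, and by edgeR 10 were higher and 7 lower at an unadjusted p under 0.05, against 8.45% and 9.91% of all genes. At T2, 5 of 33 had risen and 16 fallen, against 11.6% and 16.6% of all genes. Between T2 and RW 17 of 36 had a called rise, 12 with libraries summed, against 14.1% and 8% of all genes. XTH24 (AT4G30270) was at 620, 611 and 601 CPM in the near-identical libraries and at 56.5 CPM in A40s, against 45.4, 156, 66.1, 32.01 and 56.9 CPM in the controls. The near-identical libraries thus stood above every control and A40s among them. In 12 of the 34 members the near-identical libraries were above all controls, against 12.1% of all genes. A40s was above all controls in none, against 12% of all genes. Without A40s, 8 members were called higher and 3 lower, against 2.21% and 2.52% of all genes.

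Among the study's 28 candidates for C4 functions, edgeR called 1, and DESeq2 also NAD-dependent malic enzyme (higher) and the carbonic anhydrase gene beta CA6 (AT1G58180, lower). A gene of phosphoenolpyruvate carboxylase (AT2G42600), the enzyme that fixes bicarbonate in C4 leaves and refills organic acids in C3 leaves, was at 121, 125 and 116 CPM in A30s, A38s and A42s and 167 CPM in A40s, against 428, 635, 313, 493 and 551 CPM in the controls. The groups did not overlap. The log2 change was -1.87 (SE 0.24, edgeR adjusted p = 0.0220), and -1.74 summed (adjusted p = 0.850). At T2 it had been called lower by -1.22 (adjusted p = 0.00162), and the difference of -0.68 between the changes was not called (95% interval -1.37 to 0.01). A gene of NAD-dependent malic enzyme (AT4G00570), which releases CO2 from malate in mitochondria, was at 92.1 to 94.2 CPM in the near-identical libraries and 48.98 CPM in A40s, against 30.2 to 48.8 CPM. It was not called by edgeR (adjusted p = 0.0913) but was by DESeq2 and by limma.

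Nitrogen genes differed among themselves. NIR1 (AT2G15620), nitrite reductase, was at 207, 207, 213 and 208 CPM in A30s, A38s, A42s and A40s and at 307 to 583 CPM in the controls. The rewatered libraries agreed closely here and were all below the controls, with a log2 value of -1.16 (edgeR adjusted p = 0.0628) and a summed 95% interval of -1.91 to -0.37. NRT1.7 (AT1G69870), which moves nitrate out of older leaves through the phloem, was at 541, 535 and 535 CPM in the near-identical libraries, 173 CPM in A40s and 77 to 280 CPM in the controls. It was not called by edgeR (adjusted p = 0.127). DESeq2 called NIR1 lower and NRT1.7 higher, and no other of the 7 tested genes of nitrate uptake and reduction.

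Loci without a name were also among the lower calls. AT1G49500 was at 6.34, 6.24 and 4.95 CPM in A30s, A38s and A42s, 11.8 CPM in A40s and 76.4, 133, 114, 69.2 and 105 CPM in the controls, the steepest fall of the 18 (log2 -3.76, SE 0.33, edgeR adjusted p = 0.00275, and 0.176 summed). It had fallen at T2 too, by 1.92 on the log2 scale, and the difference between the changes was called with libraries separate (adjusted p = 0.00808) and not when summed (0.0891). AT2G41560 was at 26.8, 26.4, 26.97 and 40.97 CPM in the same order and at 106 to 178 CPM in the controls (log2 -2.16, adjusted p = 0.0178, and 0.850 summed). Both loci had groups without overlap.

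MYB96 (AT5G62470), a transcription factor that promotes cuticular wax synthesis under ABA in Arabidopsis, was at 18.9, 18.9, 22.8 and 32.6 CPM in A30s, A38s, A42s and A40s and at 5.32 to 12.0 CPM in the controls. It was above all controls in every rewatered library but missed the threshold (log2 1.49, edgeR adjusted p = 0.0628). The difference from T2 was called in both fits (1.78, adjusted p = 0.00665, and 0.0310 summed). Of the 16 wax genes, none was called at RW by edgeR (1 higher and 0 lower at an unadjusted p under 0.05) and 1, MYB96, was by DESeq2. Aquaporins, the water channels, had fallen in 11 of 18 members at T2, against 16.6% of all genes. At RW, none was called by edgeR (1 higher and 5 lower at an unadjusted p under 0.05, and 1 higher and 4 lower by DESeq2), TIP4;1 (AT2G25810) being above all controls at 9.72 to 12.7 CPM against 2.89 to 6.93 CPM. PIP1;2 (AT2G45960) of the plasma membrane was below them at 356 to 538 CPM against 556 to 1265 CPM.

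Genes of proline breakdown showed a wide gap inside the rewatered group. Proline dehydrogenase, the first enzyme that oxidises stored proline, is encoded by PRODH1 (AT3G30775), which was at 612, 603 and 634 CPM in A30s, A38s and A42s and at 53.4 CPM in A40s. The controls were at 15.0, 23.57, 110, 18.4 and 27.3 CPM, so that A40s lay inside their range and the near-identical libraries far above it. PRODH2 (AT5G38710) had the same pattern, at 36.3, 29.3 and 32.04 CPM, 3.31 CPM in A40s, and 0.937 to 5.76 CPM in the controls. At both genes A40s was within the control range only through A10c. The next highest control was at 27.3 CPM for PRODH1 and 1.28 CPM for PRODH2, below A40s. The log2 values of 3.62 and 3.63 were not called at RW by edgeR (adjusted p = 0.0855 and 0.0752) but were by DESeq2, with no other of the 9 proline genes, and the summed 95% intervals were 1.01 to 5.31 and 1.11 to 5.27. Against T2, where PRODH1 had been lowered by drought (log2 -2.65, adjusted p = 0.00970), the difference was 6.26 (adjusted p = 0.000342, and 0.00814 summed).

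SLAH3 (AT5G24030), an anion channel of guard cells and other leaf cells, was another such gene, at 87.2, 85.6 and 89.4 CPM in the near-identical libraries, 19.03 CPM in A40s and 9.70 to 24.3 CPM in the controls. Across all genes tested, the near-identical libraries were above every control at 12.1% and below at 11.5%, and A40s above at 12% and below at 9.62%. The near-identical libraries and A40s lay outside the controls on opposite sides at 1.46%. The plants behind A40s and behind the near-identical libraries were under 1 treatment label, and the sources used here give no further difference between them.

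**Figure D4:**
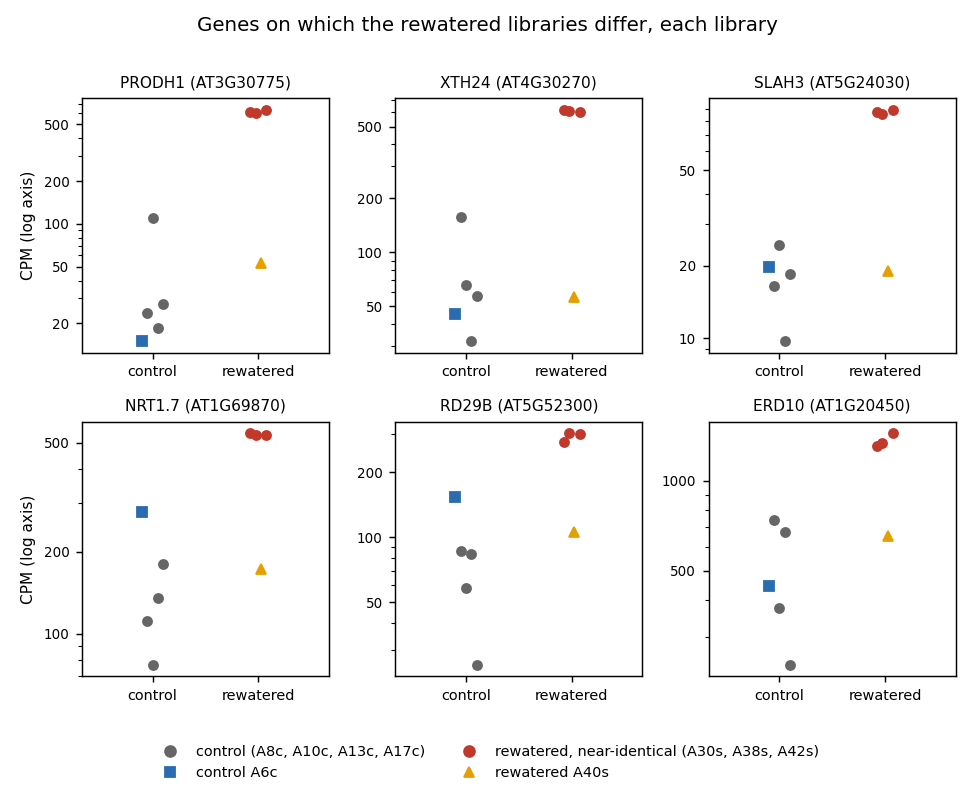
Level (CPM, log axis) of 6 genes at which the rewatered libraries differ among themselves, with the symbols of the plot of called genes. In every panel A30s, A38s and A42s lie together above all controls and A40s lies among the controls, as for PRODH1, where A40s at 53.4 CPM falls between controls at 27.3 and 110 CPM.

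The control A6c set the level of several gene groups on the control side. Glucosinolates are the mustard-oil precursors with which crucifers resist herbivores, and jasmonate is the hormone that raises them after wounding. SOT17 (AT1G18590), a sulfotransferase of glucosinolate synthesis, was at 274 CPM in A6c and at 0.770 to 2.66 CPM in the other 4 controls, while the rewatered libraries lay between 1.66 and 2.40 CPM. The plastid carrier gene BAT5 (AT4G12030) of the same pathway was at 261 CPM in A6c and 0.303 to 2.201 CPM in the other controls. Of 21 tested glucosinolate genes, 19 were more than 2 times as high in A6c as in any other control, which 6.67% of all genes were, and of 13 jasmonate genes 12 were. The jasmonate regulators JAZ9 (AT1G70700) and MYC2 (AT1G32640) were at 2575 and 831 CPM in A6c, and at 165 to 350 and 67.3 to 167 CPM in the other controls.

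The median log2 change of the glucosinolate genes was -2.305 with A6c and 0.45 without it. None of the 21 was called with A6c by edgeR (0 higher and 3 lower at an unadjusted p under 0.05, 0 by DESeq2), and 1, MYB34, was higher without it. In 7 of the 16 starch breakdown genes A6c was again over 2 times any other control, among them the beta-amylase gene BAM5 (AT4G15210) at 854 CPM against 10.8 to 104 CPM. CLH1 (AT1G19670), a chlorophyllase induced by jasmonate in Arabidopsis, was at 1151 CPM in A6c and 2.18 to 24.5 CPM in the other controls. Its rewatered levels were 1.56 to 9.23 CPM, and the log2 value of -6.09 (adjusted p = 0.174) rests on A6c.

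**Figure D5:**
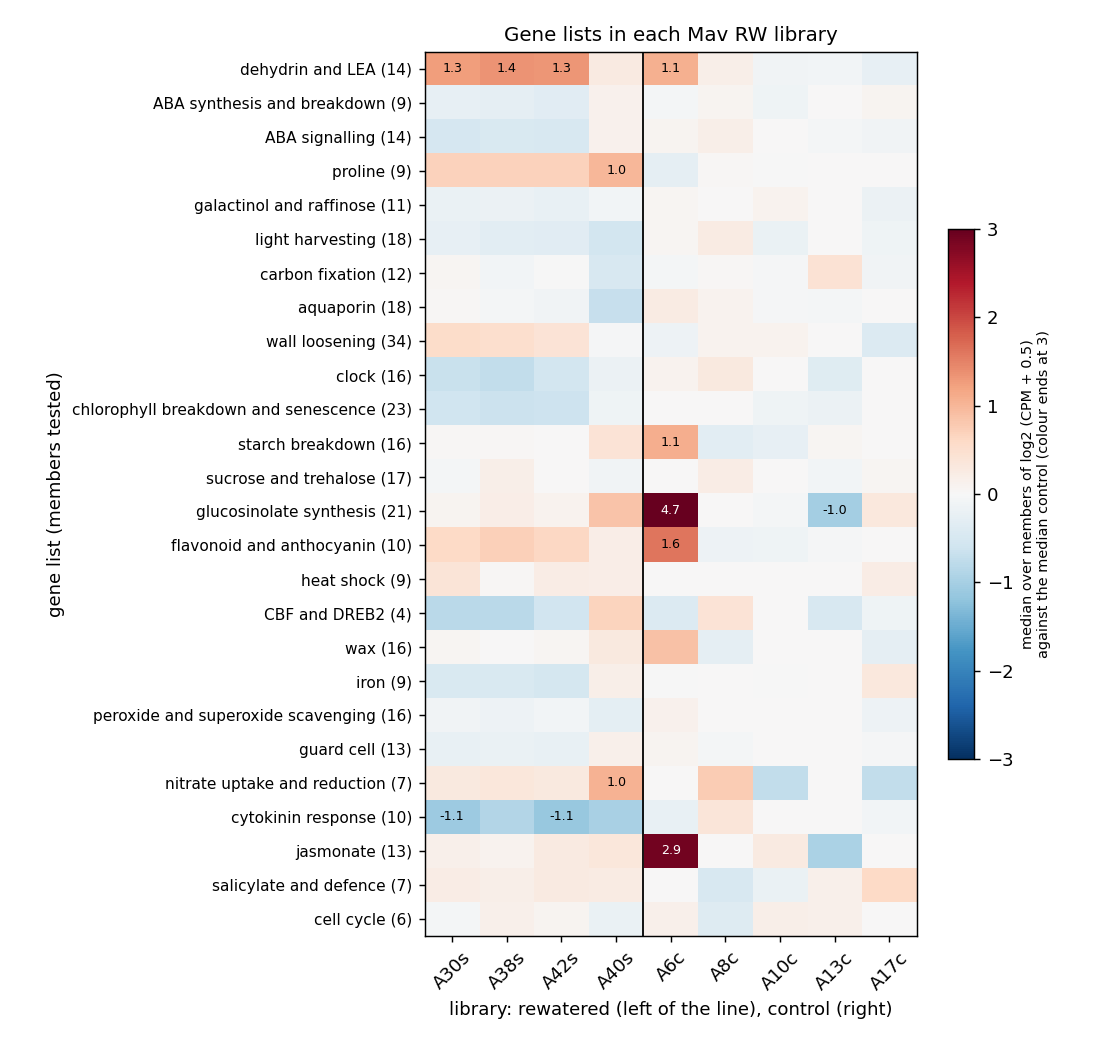
Median over the tested members of 26 gene lists (rows, number tested in brackets) of the log2 difference of each library (columns) from the median control, with 0.5 CPM added before the log. Colour runs from blue (-3) to red (3), and medians of size 1 or more are printed. The near-identical A30s, A38s and A42s share a profile, with dehydrin and LEA genes at 1.25 to 1.35 and A40s at 0.27, while control A6c reads 4.69 for glucosinolate synthesis and 2.89 for jasmonate.

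The 16 tested clock genes had a median log2 change of -0.67 at RW (-0.54 summed), beside -0.05 over all genes. None was called by edgeR in either fit (1 higher and 3 lower at an unadjusted p under 0.05 with libraries separate), RVE1 was lower by DESeq2, and TOC1 was lower by edgeR without A40s. PRR3 (AT5G60100), a clock component, was at 149 to 180 CPM in rewatered leaves and 70.4 to 129 CPM in controls, and TOC1 at 54.1, 55.96 and 57.5 CPM in the near-identical libraries and 159 CPM in A40s, against 83.7 to 319 CPM in the controls. The near-identical libraries were thus below every control for TOC1 and A40s was not. Galactinol and raffinose genes, of sugars that protect drying cells, had risen in 4 of 11 members at T2, against 11.6% of all genes. None was called at RW by edgeR (0 higher and 2 lower at an unadjusted p under 0.05). By DESeq2, AGAL1 (AT5G08380), an alpha-galactosidase that takes these sugars apart, was lower, at 17.2 to 18.16 CPM in the near-identical libraries, 43.4 CPM in A40s and 38.7 to 81.9 CPM in the controls.

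The other lists gave few or no calls at RW. No member was called by edgeR or DESeq2 among 17 genes of sucrose and trehalose (1 higher and 1 lower at an unadjusted p under 0.05), 10 of flavonoids and anthocyanins (1 and 1), 4 of CBF and DREB2 (0 and 0), 13 of jasmonate (0 and 2), 7 of salicylate and defence (0 and 0), 6 of the cell cycle (0 and 1) and 16 of starch breakdown (1 and 1). The flavonoid count rests on A6c, which was over 2 times any other control at 7 of the 10 genes: without it the list's median log2 change went from -0.66 to 0.87, and FLS1 and MYB111 were called higher. Without A6c the median also went from -0.42 to 0.58 for jasmonate and from -0.31 to 0.16 for starch breakdown, and edgeR called DPE1 of starch breakdown, CER3, CER4 and MYB96 of wax higher and TPS9 and TPS11 of trehalose lower. No member was called by either tool in the study's lists of 11 Calvin-Benson-Bassham genes (0 and 0), 10 of photorespiration (0 and 0), 13 candidates of a nitrogen shuttle (1 and 3) and 4 of mitochondrial electron transport (0 and 1). By edgeR none was called among 9 iron genes (1 and 1), 13 guard cell genes (1 and 0) and 16 genes of peroxide and superoxide scavenging (1 and 1), where DESeq2 called PYE lower, SLAH3 higher, and FSD1 higher with CAT2 lower. The iron superoxide dismutase gene FSD1 (AT4G25100) was at 1329, 1239 and 1249 CPM in A30s, A38s and A42s, 548 CPM in A40s and 239 to 831 CPM in the controls, so that A40s again lay inside the control range.

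M. moricandioides (Mmo), the C3 species of the study (accession Osnabruck:04-0393-10-00), was sampled at RW under the same treatments, with 4 rewatered and 4 control libraries. There edgeR called 35 of 19445 genes (0.18%), and none of 20226 with near-identical libraries summed (196 higher and 215 lower at an unadjusted p under 0.05). Whether the species differed was tested directly. The change at RW differed between Mav and Mmo at 382 of 21163 genes (1.81%), 188 with a higher change in Mav (0.888%) and 194 with a lower one (0.917%), and at 1 of 21916 (0.00456%; AT5G38360, named after its value was seen) with near-identical libraries summed, when Mav and Mmo both have 2 rewatered units.

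AT5G45610 was among the genes that differed, with a log2 change of 4.00 in Mav and 0.13 in Mmo (difference 3.87, edgeR adjusted p = 0.000130, and 0.0893 summed). SHM7 changed by 1.57 in Mav and had a value of -0.84 in Mmo (difference 2.41, adjusted p = 0.00550, and 0.996 summed). SLAH3 had 1.99 in Mav and -2.22 in Mmo (difference 4.21, adjusted p = 0.0114, and 0.996 summed). For the cytokinin genes a difference between the species was not established: ARR4 had -2.11 in Mav and -0.35 in Mmo, with an adjusted p of 0.0899 for the difference (0.996 summed), and ARR3 -2.40 and -0.14 (adjusted p = 0.0564, and 0.996 summed). CYP707A1 had 1.202 and 1.398 (adjusted p = 0.862 for the difference).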

How the data were processed

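RNA of mature leaves was sequenced on an Illumina HiSeq. Per the study's methods, the authors (Nebion AG) mapped the reads by BLAT, in protein space, on a reduced set of TAIR10 coding sequences and kept best-scoring mappings. Reads of close paralogs therefore cannot be separated with certainty. The deposited files hold expected counts (estimated counts, here whole numbers) and TPM values that the authors scaled to 1000000 per library. The counts were tested as deposited, and TPM only in the limma alternative, as log2(TPM + 1).

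Only the libraries compared entered a fit: filterByExpr, TMM scaling and the quasi-likelihood test of edgeR, its p-values adjusted by Benjamini-Hochberg over all genes tested. A gene was called if its adjusted p was under 0.05 and its log2 fold change exceeded 1 in size. Differences between sampling points or species are interaction contrasts in 1 fit over 4 groups. Libraries whose median squared difference was under 4 times counting noise were summed in a second fit. That difference was taken over genes with a mean of at least 20 counts over the pair. The labels call each library a biological replicate. P-values measure the spread between these libraries. Alternatives were DESeq2's size factors and test, no filter, limma, a fit over all Mav libraries, stricter thresholds and leaving out each library. R 4.3.3, edgeR 4.0.16, limma 3.58.1 and DESeq2 1.42.0 were used. The scripts were tested on simulated libraries drawn independently of each other, so that test cannot speak to near-identical libraries.

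The groups, gene lists and tests were chosen with earlier results of these data known. The genes named are, by rule, among called genes without overlap and with a mean of at least 1 CPM the 10 with the largest and the 10 with the smallest log2 change, taken first from those called in both fits, and up to 3 members of each list with the smallest p. Members of the dehydrin, ABA synthesis and ABA signalling lists may also be named. The files pair no locus with a name. Of the unnamed loci in the first set, only those with the smallest adjusted p in each direction were therefore described. Others were left out, among them AT1G80130, called higher at RW (log2 5.01, edgeR adjusted p = 0.00612, and 0.176 summed). Symbols were assigned from general knowledge of Arabidopsis loci. Of 415 list members 44 have an entry in the study's names table, 37 of them with the same symbol and the others under a synonym or description. No sequence is printed, as no reference was used. Columns of other samples were not used.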

Additional observations from a re-analysis of the deposited data

Results flagged for a closer look

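Among the 61 genes described, 11 had 1 control library far from the other 4 (gap over range above Dixon's critical value of 0.71, which chance exceeds in about 1 group in 20). A6c was the outlying library for 6: SOT17 (274 CPM), BAT5 (261 CPM), JAZ9 (2575 CPM), MYC2 (831 CPM), BAM5 (854 CPM) and CLH1 (1151 CPM). A10c was for 3, with ARR4 at 53.7 CPM, PRODH1 at 110 CPM and PRODH2 at 5.76 CPM. A8c was for XTH24 (156 CPM) and serine hydroxymethyltransferase (7146 CPM). The rewatered libraries were not checked in this way, since 3 of the 4 are near-identical.

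The change at RW differed from the change at T2 at 5601 genes in all. Of the genes described, 35 were among them, and 26 of these also with near-identical libraries summed. Differences above 0 on the log2 scale, with a higher change at RW, were 4.16 for AT5G45610, 4.52 for AT1G61800, 1.48 for SHM7, 2.46 for ARR3, 2.51 for ARR4, 5.56 for ARR15, 2.90 for ARR5, 4.91 for ARR7, 2.54 for XTH24 and 1.29 for NAD-ME. They were 6.26 for PRODH1, 5.17 for PRODH2, 2.29 for SLAH3, 2.35 for NRT1.7, 1.78 for MYB96, 1.58 for PRR3, 2.17 for glycine cleavage system H protein and 1.55 for serine hydroxymethyltransferase.

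Differences below 0 among abscisic acid and protection genes were -2.46 for RD29B, -4.85 for RAB18, -3.53 for ABI2, -3.43 for AHG3, -4.10 for NCED3, -2.38 for AAO3, -3.44 for ABF3 and -2.06 for ABF1. Elsewhere they were -1.87 for AT1G49500, -6.04 for beta CA6 (AT1G58180, a carbonic anhydrase), -1.07 for P5CR (AT5G14800, of proline synthesis), -6.71 for SAG12, -1.13 for CP12-2, -2.31 for CAT2, -4.61 for FER1, -2.37 for HSP17.6B and -1.25 for AGAL1.

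The change at RW differed between Mav and Mmo at 382 genes. Of those described, the change in Mav minus that in Mmo was 3.87 for AT5G45610, 5.18 for AT1G61800, 2.41 for SHM7, 1.75 for NAD-ME, 3.08 for RD29B, 4.21 for SLAH3 and 4.72 for HSP23.5. It was -1.27 for CP12-2 and -1.88 for TTG1 (AT5G24520, a regulator of flavonoid synthesis). With near-identical libraries summed none of these genes was called, AT5G38360 being the only gene that was. HSP23.5 was near the limit of detection in Mav at RW.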

How the results depend on the processing

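The counts of called genes depended strongly on the processing. Against 34 genes higher and 18 lower at RW, there were 30 and 18 with RLE size factors, 29 and 14 without a filter, 369 and 445 with DESeq2, 196 and 33 with limma on TPM, 162 and 161 in a fit over all Mav libraries, 3 and 1 at an adjusted p under 0.01, and 3 and 1 with glmTreat. Summing near-identical libraries left 1 and 0. Alternatives added after seeing the data gave 7 and 1 with those libraries summed and A6c left out, and 2 and 2 on lane 2 alone. Leaving out each library in turn gave 3 to 439 higher and 1 to 500 lower.

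Summing took the genes that differ between RW and T2 from 5601 to 3151, those called in Mmo from 35 to 0 and those that differ between species from 382 to 1, and gave 5385 at T2, against 5525. Leaving out A6c (6027), A40s (6070), or A6c with libraries summed (3764) moved the RW against T2 count, again after seeing the data.

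Of 61 genes described, 9 lost their call when libraries were summed, and AT5G45610 alone of those called kept it. The 52 that kept their side of the threshold are otherwise genes uncalled in both fits. A fit with fewer units was unlikely to call them, so that count is no sign of stability. Log2 values that changed sign were those of NCED3 (0.11, summed without A6c), AAO3 (0.080, limma), SOT17 (0.33 without A6c, 0.44 also summed) and BAT5 (0.69 and 1.11). Over single left-out libraries SOT17 ran from -5.16 to 0.33 and BAT5 from -5.22 to 0.69. Their causes were not tested, though without A6c the last 2 lose the library that set their control level. No paired analysis was possible because the replicate labels of the groups share no numbers. After summing, the rewatered group has 2 units.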
